A study of Mus musculus with 2 samples.

Results

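The genes described here lie on mouse chromosome 8 between Borcs8 and Smad1, at chr8:70139499-79399518 of the GRCm38 build. They are 58 listed genes that had been selected on their lower measured ratio in the Smad1/5 double knockout library, so the block-wide difference below is a description of the selection and was given no test. Of the 58, 57 were matched in the gene table and all 57 passed the minimum of 50 unique molecular identifiers (UMIs, 1 per captured transcript) over both libraries, among 13654 genes that passed in all. Ifi30 was not analysed here.

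Parental E14 mouse embryonic stem cells (WT) were compared with S1/5 dKO cells, in which Smad1 and Smad5 had been targeted by CRISPR-Cas9 in the same parental line. Both cultures were kept without feeders on gelatin in medium with fetal bovine serum and leukemia inhibitory factor, and each gave 1 library of 3′-end single-cell RNA-seq. The labels do not name the S1/5 dKO line that was loaded. With 1 library per genotype no test between genotypes was possible, and every interval below covers counting error only.

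Barcodes with 1000 or more detected genes and no more than 5% mitochondrial UMIs were taken as cells: 2236 in WT (95965242 UMIs) and 2910 in the S1/5 dKO-labelled library (109020533 UMIs). No cell barcode was shared by the cells of both libraries. However, barcodes with at least 1000 genes in 1 library, of any mitochondrial share, also carried UMIs in the other. The 2939 such barcodes of the S1/5 dKO-labelled library had a median of 117 UMIs in the WT library, and the 2262 of WT had a median of 122 UMIs in the other. The 6 pluripotency markers summed to 2713 UMIs per 1000000 (CPM) in WT and to 2746 in the S1/5 dKO-labelled library. Fibroblast or feeder markers summed to 0.80 and 1.05 CPM, with 3 and 2 of 6 at 0, endoderm markers to 1.99 and 2.21 CPM, and markers of 2C-like cells to 3.39 and 10.5 CPM, with none of 6 at 0 for the last 2 lists. The part of 2C-like cells in the member ratios was not tested.

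The targeted genes were examined first. Smad1 and Smad5 encode the transcription factors that carry the bone morphogenetic protein (BMP) signal from receptor to nucleus. Smad1, at the telomeric end of the interval, was counted at 13.4 CPM in WT but 9.17 CPM in the S1/5 dKO-labelled library, a log2 ratio of −0.55 (95% counting interval −0.67 to −0.43). Smad5, on chromosome 13, was counted at 6.05 CPM in WT but 9.09 CPM in the other, a log2 ratio of 0.59 (0.44 to 0.74), so its mRNA was not lower. The position of the CRISPR lesions is not given, so 3′-end counts may leave a frameshift unseen, and neither gene checks the label. For these cells the paper reports lower mRNA of the BMP-SMAD target genes Id1 and Id3, which were not examined here.

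Neighbouring genes on a chromosome usually have unrelated functions and their own promoters. The subunits of a protein complex are likewise often encoded on different chromosomes. This group holds such a mixture: subunits of the replicative helicase, of splicing and RNA decay complexes, of vesicle coats and of Mediator, together with inducible genes of the oxidative, integrated stress and interferon responses.

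The 57 members summed to 5165 CPM (495647 UMIs) in WT and 3625 CPM (395235 UMIs) in the S1/5 dKO-labelled library. The pooled log2 ratio of the S1/5 dKO-labelled library to WT was −0.51 (−0.52 to −0.50), a ratio of 0.702 (0.699 to 0.705). The member median was −0.53, with quartiles of −0.56 and −0.43 and a range from −1.02 to 0.03, beside a median of −0.0069 over all 13654 genes. Thus 56 of 57 members were below a ratio of 1, beside 52.1% of all genes. A ratio at or under 0.8, called lower, was found for 47 members, beside 8.6% of all genes. A ratio at or over the inverse of 0.8, called higher, was found for 0 members, beside 6.85% of all genes. Nothing is read from these counts, since the same contrast chose the members. Around the 0.8 limit, Upf1 lay just inside, at a log2 ratio of −0.35, and Kxd1 just outside, at −0.32.

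**Figure D1:**
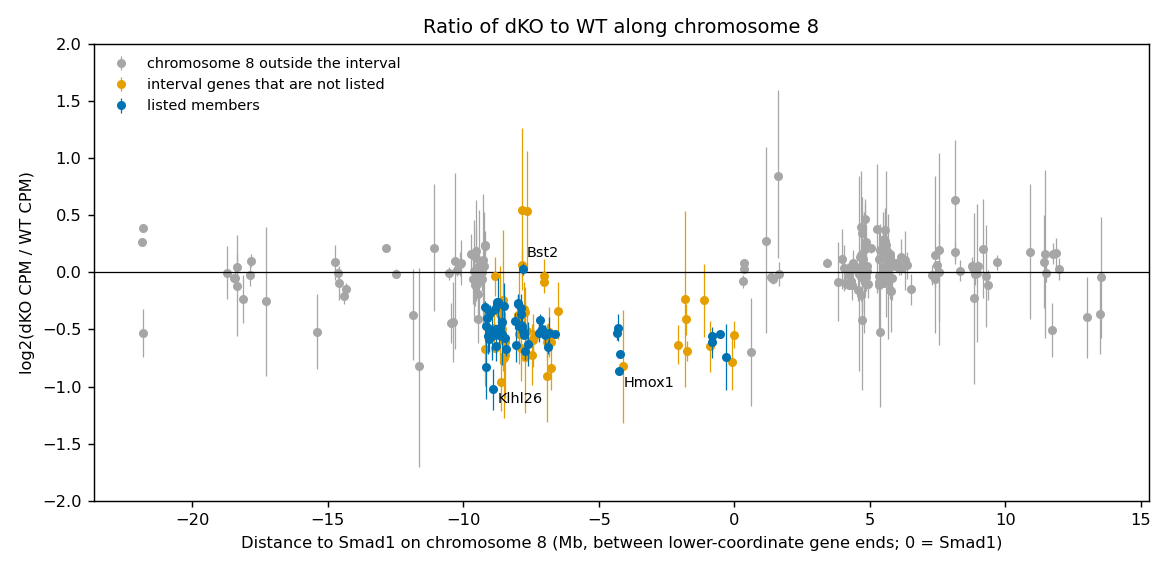
Log2 ratio of CPM in the S1/5 dKO-labelled library to WT for 267 chromosome 8 genes against the distance in Mb to Smad1 (points, genes; bars, 95% counting intervals; blue, 57 listed members; orange, 45 other genes of the interval; gray, 165 genes outside it). Members lay around −0.53 and genes on both sides around 0, with Bst2 at 0.03 and Klhl26 at −1.02.

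The ratios stepped between the interval and its flanks at both ends. These bounds follow from genes selected on this same contrast, so the step describes that selection. Nothing is read from it. On the centromeric side, Borcs8 was the first member, at a log2 ratio of −0.30 (−0.36 to −0.25), and the nearest genes outside with at least 200 UMIs were Rfxank at 0.23 (0.10 to 0.36) and Nr2c2ap at 0.24 (0.18 to 0.29). Rfxank ends just before the start of Borcs8. On the telomeric side, Smad1 at −0.55 was followed by Otud4 at −0.08 (−0.14 to −0.02) and Abce1 at 0.03 (−0.0037 to 0.05). The 58 genes next to the interval had a median of −0.0096 on the centromeric side and 0.03 on the telomeric side. The pooled ratio was 0.01 (0.0075 to 0.02) on the telomeric side and 0.25 (0.25 to 0.26) on the centromeric side, where Hmgb2, named after its values were seen, held more than any other gene: without it the pooled value was 0.04 (0.03 to 0.05). The medians of the other 19 chromosomes lay between −0.03 and 0.0096.

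The interval also held 45 genes that passed the minimum and are not on the list. Their median was −0.55, with 36 called lower and 2 called higher, beside 8.6% and 6.85% of all genes. Klf2, a pluripotency transcription factor gene, was near the WT level at −0.08 (−0.10 to −0.06), as was Plvap at 0.07 (−0.07 to 0.21). These 2 genes were named after their values were seen. The 2 called higher were B3gnt3 (51 and 84 UMIs) and C430049E01Rik (29 and 48 UMIs), with log2 ratios of 0.54 in both.

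The per-gene ratios formed a narrow distribution with a shoulder. Between 0.65 and 0.70 there were 18 members, and between 0.70 and 0.75 there were 15. Only 3 members lay between 0.75 and 0.80, followed by 9 between 0.80 and 0.85, 0 between 0.85 and 1 and 1 above 1. Against fixed ratios taken as a scale only, since no copy number was measured, the intervals of 21 members held 0.667, 3 held 0.5 and 1 held 1. The intervals of 34 members held none of the 3, of which 29 lay above 0.667 and 5 between 0.5 and 0.667. Expression level did not order the ratios: the members' medians were −0.56, −0.50 and −0.51 in the lowest, middle and highest of 3 equal groups by WT level. Along the chromosome the member medians were −0.50 for the 27 members nearest the centromeric end, −0.46 for the next 14, −0.53 for the next 8, −0.62 for the 4 around Hmox1 and Mcm5, and −0.59 for the 4 nearest Smad1.

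Promoter sequence was examined as a feature that did not enter the selection. RefSeq promoters (250 bases before to 50 after each start, GRCm38.p6) were matched for 53 of the 58 listed genes, as 61 promoters. Those of Tmem161a, Kxd1, Lsm4, Ap1m1 and Hmox1 were not matched. Member promoters had a median GC content of 64.0% and a median of 23 CpG dinucleotides, beside 52.7% and 7 over all 32851 promoters of the table. The letters GGCGCC, a BMP-type SMAD motif that reads the same on both strands, were found in 12 of 61 member promoters (19.7%) and in 11.9% of all promoters. The palindrome GTCTAGAC, bound by SMAD proteins in vitro, was found in 0 of 61 and in 0.213% of all. The core of the antioxidant response element, TGANNNNGC on either strand, was found in 33 of 61 (54.1%) and in 41.3% of all. All promoters of the table include those of genes that did not pass the UMI minimum in these cells. No comparison at matched GC content or matched expression was made. Median log2 ratios were −0.54 for the 12 members with GGCGCC and −0.51 for 40 without, and −0.53 for 28 with TGANNNNGC and −0.52 for 24 without.

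The promoters of 4 members are shown because these members span the range of ratios, with matches to the searched motifs in capitals. Klhl26 had the lowest ratio (chr8:70476896-70477195, minus strand, 25 CpG), Bst2 the highest (chr8:71537423-71537722, minus strand, 11 CpG), Gdf15 was among the least lowered and has few CpG at this start (chr8:70632407-70632706, minus strand, 1 CpG), and Slc10a7 holds both GGCGCC and TGANNNNGC (chr8:78509078-78509377, plus strand, 26 CpG).
Klhl26: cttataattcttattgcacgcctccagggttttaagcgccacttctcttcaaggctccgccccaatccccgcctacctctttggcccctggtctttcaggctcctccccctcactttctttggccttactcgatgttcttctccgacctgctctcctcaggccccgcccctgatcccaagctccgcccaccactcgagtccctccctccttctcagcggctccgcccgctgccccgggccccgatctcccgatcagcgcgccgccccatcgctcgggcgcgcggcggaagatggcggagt
Bst2: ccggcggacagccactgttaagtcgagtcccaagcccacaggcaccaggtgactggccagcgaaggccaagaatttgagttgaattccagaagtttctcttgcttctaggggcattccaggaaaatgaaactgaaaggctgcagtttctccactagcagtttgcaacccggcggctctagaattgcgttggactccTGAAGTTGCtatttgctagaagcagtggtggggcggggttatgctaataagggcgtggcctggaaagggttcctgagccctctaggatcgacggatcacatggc
Gdf15: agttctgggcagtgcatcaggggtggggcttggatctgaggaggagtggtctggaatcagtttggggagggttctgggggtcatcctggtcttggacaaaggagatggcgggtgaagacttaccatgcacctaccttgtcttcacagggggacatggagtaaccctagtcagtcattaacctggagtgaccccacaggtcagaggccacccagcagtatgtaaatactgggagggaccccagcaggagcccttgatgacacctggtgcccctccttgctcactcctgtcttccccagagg
Slc10a7: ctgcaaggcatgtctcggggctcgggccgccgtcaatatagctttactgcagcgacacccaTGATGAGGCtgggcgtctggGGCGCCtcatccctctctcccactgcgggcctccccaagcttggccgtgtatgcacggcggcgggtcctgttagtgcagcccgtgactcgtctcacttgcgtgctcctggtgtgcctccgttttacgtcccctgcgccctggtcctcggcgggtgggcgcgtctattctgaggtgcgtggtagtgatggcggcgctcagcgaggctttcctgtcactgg
The window of Slc10a7 overlaps that of Rbmxl1 on the other strand, and their log2 ratios were −0.61 and −0.56. In the other divergent pairs whose windows overlap, Cope and Ddx49 were at −0.53 and −0.50, and Myo9b and Haus8 at −0.64 and −0.43. Over these 3 pairs the difference ranged from 0.03 to 0.21 on the log2 scale.

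A member was said to depart from the block when its interval lay wholly on 1 side of the ratio of all other members pooled and its distance from it was at least 0.3 on the log2 scale. The 4 members that did were Bst2 above the block and Klhl26, Hmox1 and Slc25a42 below it. Bst2, Klhl26 and Hmox1 departed under all 9 alternatives in which departure was computed. Those that changed only the scaling or the UMI minimum could not alter this. Scaling shifts a member and the other members alike, and all members passed each minimum. Only other limits on cells, thinning and leaving out cells with many UMIs could change a departure. Slc25a42 did not depart in thinned cells or without the cells of more than 2 times the median UMIs, and Mast3 departed in thinned cells alone, at −1.06 (−1.64 to −0.50). The others are described here by role, with CPM in WT and in the S1/5 dKO-labelled library in that order, followed where in parentheses by the log2 ratio and its 95% counting interval. The counts called lower in each role, beside 8.6% of all genes, follow from the selection of the members, and nothing is read from them.

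**Figure D2:**
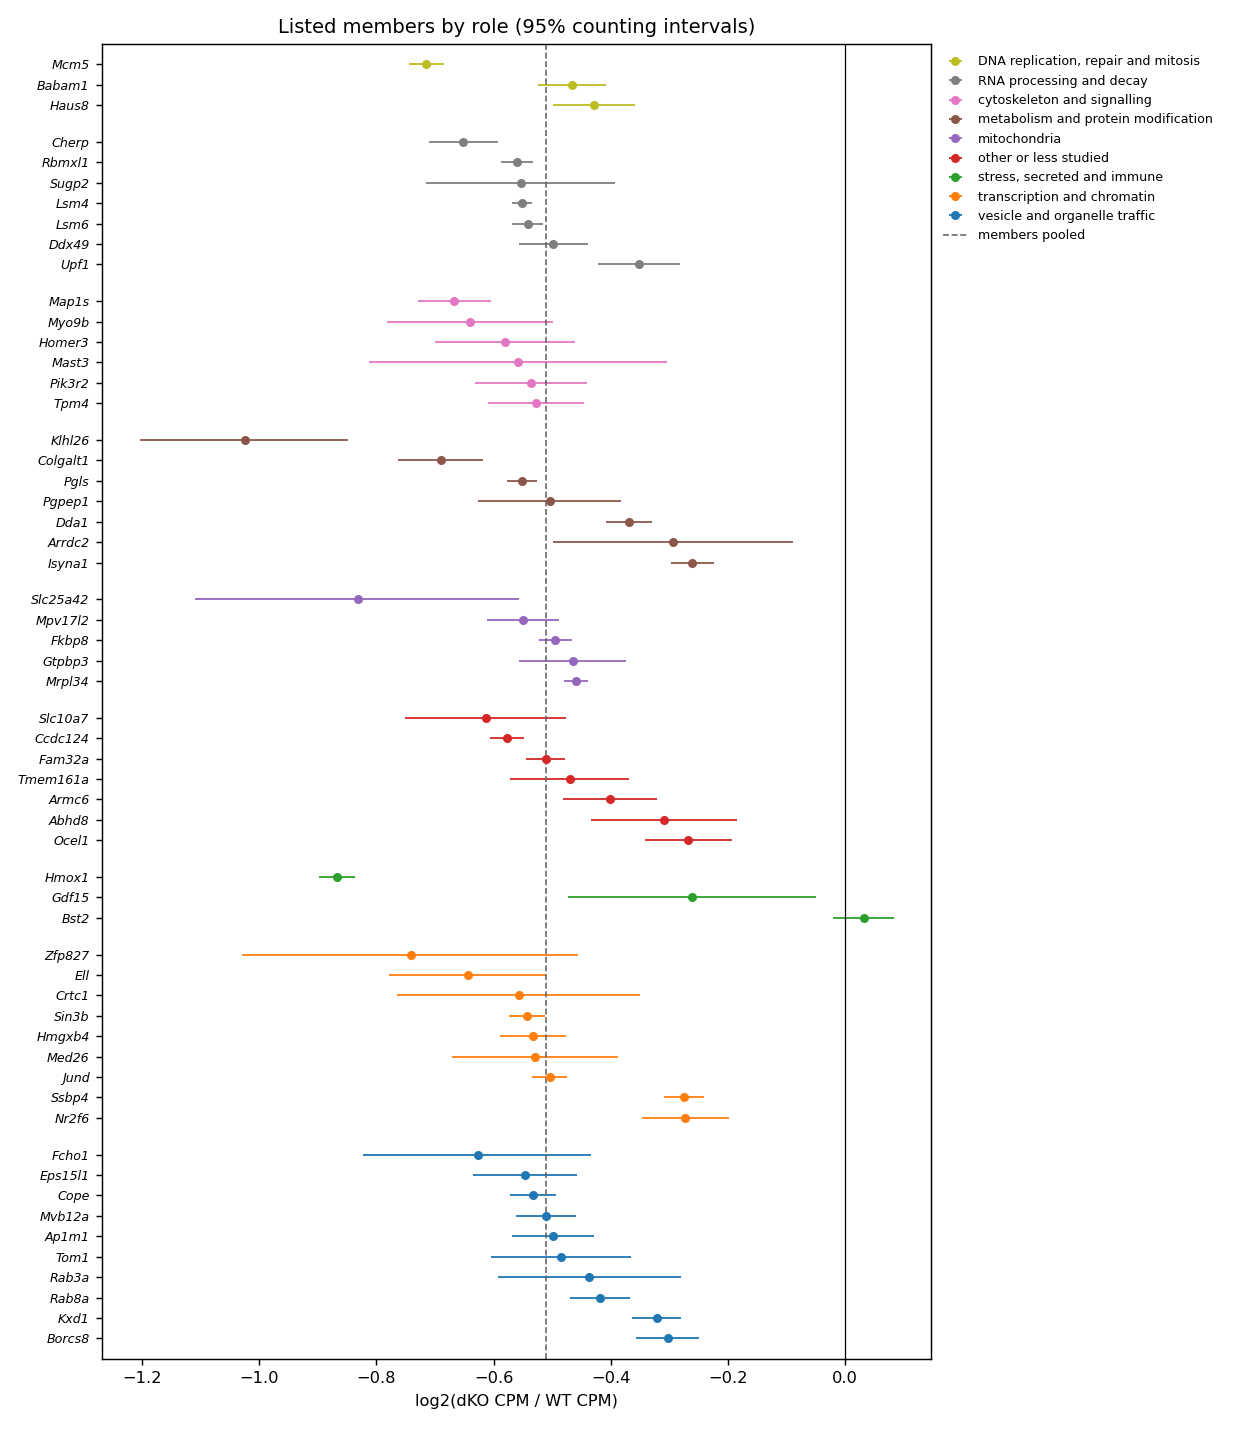
Log2 ratio of CPM in the S1/5 dKO-labelled library to WT for each of the 57 members (points), grouped by role in colour, with 95% counting intervals (bars), the pooled member value at −0.51 (dashed line) and equality (solid line at 0). Bst2 sits at the solid line, and Klhl26, Slc25a42 and Hmox1 lie farthest to the left.

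Among the inducible stress, secreted and immune genes, the members differed most. Hmox1 encodes heme oxygenase, which degrades heme and is induced by oxidative stress through NRF2. Hmox1 was at 236.9 CPM in the WT library and at 129.9 CPM in the S1/5 dKO-labelled library, a log2 ratio of −0.87 (−0.90 to −0.84). This was 0.37 below all other members pooled. Its counts were also the most uneven over cells: after thinning each cell to 10000 UMIs the variance was 2.61 times the mean in WT and 2.25 times in the other library, beside member medians of 1.07 and 1.05. In WT, 79.7% of cells had an Hmox1 UMI at this depth, and 62.6% in the other library. The log2 ratio of Hmox1 ranged from −0.81 to −0.93 over 3 equal groups of cells by depth, from −0.81 to −0.93 over 3 by share of G2/M transcripts, and from −0.80 to −0.95 over 3 by share of S-phase transcripts.

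Bst2 encodes tetherin, an interferon-inducible membrane protein that retains budding enveloped viruses at the cell surface. Its level was 59.5 CPM in WT against 60.8 CPM in the S1/5 dKO-labelled library, a log2 ratio of 0.03 (−0.02 to 0.08), 0.55 above all other members pooled. The nearest members on each side were lower: Gtpbp3 was at −0.47 (−0.56 to −0.37) and Mvb12a at −0.51 (−0.56 to −0.46). However, Plvap and C430049E01Rik, which are not listed and lie between Gtpbp3 and Bst2, were not lower, at 0.07 (−0.07 to 0.21) and 0.54 (−0.15 to 1.26). Bst2 was detected in 41.4% and 42.8% of thinned cells, so its level was carried by a like share of cells in both libraries. Gdf15 encodes a secreted stress cytokine of the TGF-β superfamily. Gdf15 was low, at 3.98 and 3.32 CPM, with a log2 ratio of −0.26 (−0.47 to −0.05); in thinned cells it was −0.57, so its place among the least lowered members rests on few UMIs.

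Genes of the same responses outside the interval were mostly called neither, and the few calls are read against 8.6% of all genes called lower and 6.85% called higher. Of 11 NRF2 targets listed, 9 passed, with a median of −0.10. Nqo1 (49.4 and 38.4 CPM, −0.36, −0.42 to −0.30) and Gclc (28.1 and 22.5 CPM, −0.32, −0.40 to −0.24) were called lower and Srxn1 (14.2 and 18.0 CPM, 0.34, 0.24 to 0.44) higher. Among those called neither, Fth1 at −0.28 (−0.28 to −0.27), Ftl1 at −0.13, Gclm at −0.10 and Txnrd1 at −0.10 had intervals wholly below 0. Prdx1 was at 0.02 and G6pdx at 0.07. Nqo1, a quinone reductase gene, is also on chromosome 8 but outside the interval. Of 9 integrated stress and p53 genes, all passed, with a median of −0.01: Atf3 was lower (1.38 and 0.862 CPM, −0.67, −1.07 to −0.28) and Atf4, the central transcription factor of the integrated stress response, was higher (102.6 and 135.8 CPM, 0.40, 0.37 to 0.44). Of 9 interferon response genes, 7 passed, with a median of −0.15 and 0 called in either direction. They ranged from B2m at −0.32 (−0.41 to −0.22) to Ifitm3 at 0.21 (0.19 to 0.22).

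In DNA replication, repair and mitosis, all 3 members were called lower, with a median of −0.47 and a pooled value of −0.63 (−0.66 to −0.61) that Mcm5 dominated. Mcm5, a subunit of the replicative MCM helicase, had 226.2 CPM in WT but 137.8 CPM in the S1/5 dKO-labelled library, a log2 ratio of −0.71 (−0.75 to −0.68). Its distance below the rest was 0.21, short of the 0.3 that defined departure. Its ratio ranged from −0.79 in the group of cells with the lowest share of other S-phase transcripts to −0.65 in the group with the highest. Babam1, of the BRCA1-A repair complex, was at −0.47 (−0.52 to −0.41), and Haus8, of the augmin complex that nucleates spindle microtubules, was at −0.43 (−0.50 to −0.36).

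In RNA processing and decay all 7 members were called lower, with a median of −0.55 and a range from −0.65 to −0.35. Lsm4, a subunit of the LSM rings that bind U-rich RNA ends in decay and splicing, had the most UMIs of all members, with 643.6 CPM in WT but 439.2 CPM in the S1/5 dKO-labelled library, a log2 ratio of −0.55 (−0.57 to −0.53). Lsm6, of the same rings but near the other end of the interval, was at −0.54 (−0.57 to −0.52). Cherp, a spliceosome-associated gene, was lowest at −0.65 (−0.71 to −0.59) and Upf1, the helicase of nonsense-mediated decay, highest at −0.35 (−0.42 to −0.28). Sugp2 was at −0.55 and Ddx49, an RNA helicase gene, at −0.50. Rbmxl1 was at −0.56 (−0.59 to −0.53), but it is close in sequence to Rbmx on the X chromosome, at 0.06 (−0.14 to 0.26), and the counting could split their reads.

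Of 9 members in transcription and chromatin, 7 were called lower, with a median of −0.53. Jund, an AP-1 subunit, was at 211.4 and 149.1 CPM (−0.50, −0.53 to −0.47), and Sin3b, scaffold of a histone deacetylase complex, at 199.8 and 137.1 CPM (−0.54, −0.57 to −0.51). The remaining lowered members were Zfp827 at −0.74 (−1.03 to −0.46, from 425 UMIs in all), the elongation factor Ell at −0.64, the CREB coactivator Crtc1 at −0.56, Hmgxb4 at −0.53 and the Mediator subunit Med26 at −0.53. Ssbp4 (149.1 and 123.2 CPM, −0.27, −0.31 to −0.24) and the orphan nuclear receptor gene Nr2f6 (31.6 and 26.1 CPM, −0.27, −0.35 to −0.20) were called neither. Nr2f6 overlaps Ocel1 on the other strand by 5239 bases, and Ocel1 had nearly the same ratio, −0.27 (−0.34 to −0.19).

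Vesicle and organelle traffic held 10 members, 8 called lower, with a median of −0.49. Cope, a subunit of the COPI coat of Golgi vesicles, had the most UMIs, at 122.6 and 84.8 CPM (−0.53, −0.57 to −0.49). Fcho1 and Eps15l1, which act in clathrin-mediated endocytosis, were at −0.63 and −0.55, the ESCRT-I subunit Mvb12a at −0.51, the AP-1 adaptor subunit Ap1m1 at −0.50 and Tom1 at −0.48. The small GTPase genes Rab3a and Rab8a were at −0.44 and −0.42. Both BORC subunits, which position lysosomes along microtubules, were called neither: Kxd1 at −0.32 (−0.36 to −0.28) and Borcs8 at −0.30 (−0.36 to −0.25). Both overlap another gene on the same strand, so the reads may not be fully told apart. For Borcs8 this gene is Mef2b, itself at −0.67 from 195 and 139 UMIs. Pgls, described below, likewise overlaps Fam129c on the same strand.

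All 5 mitochondrial members were called lower, with a median of −0.49. The mitoribosomal gene Mrpl34 was the most counted, at 452.6 and 329.1 CPM (−0.46, −0.48 to −0.44), followed by Fkbp8, a chaperone of the outer membrane, at 238.4 and 169.2 CPM (−0.49, −0.52 to −0.47). Mpv17l2 was at −0.55 and the tRNA-modifying enzyme gene Gtpbp3 at −0.47. Slc25a42, a mitochondrial carrier of coenzyme A, was at 2.94 and 1.65 CPM, a log2 ratio of −0.83 (−1.11 to −0.56) from 282 and 180 UMIs. In thinned cells it was −0.58, which no longer departed from the block.

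Metabolism and protein modification held the lowest member. Klhl26, a kelch-repeat protein gene, had 7.60 CPM (729 UMIs) in WT but 3.73 CPM (407 UMIs) in the S1/5 dKO-labelled library, a log2 ratio of −1.02 (−1.20 to −0.85), or 0.491 of the WT level. Over all cells, this was the only member whose interval held 0.5 and not 0.667. Its log2 ratio ranged from −0.78 (−1.12 to −0.44) in the group of cells with the lowest depth to −1.17 in that with the highest. Over 3 groups by share of S-phase transcripts it ranged from −0.81 to −1.47. Among cells with no UMI of the imprinted gene Mest it was −0.56 (−1.01 to −0.15), but −1.05 among cells with at least 2. The lowest-depth and no-Mest intervals also held 0.667, as did that of the middle group by S-phase share, −0.81 (−1.13 to −0.49). Colgalt1, a collagen galactosyltransferase gene, was at −0.69 (−0.76 to −0.62), Pgls of the pentose phosphate pathway at 311.2 and 212.3 CPM (−0.55, −0.58 to −0.53) and Pgpep1 at −0.50. Isyna1, which encodes the inositol-synthesizing enzyme, was among the least lowered, at 128.6 and 107.3 CPM (−0.26, −0.30 to −0.22), as was Arrdc2 at −0.29 (−0.50 to −0.09). By depth of the cells Isyna1 ranged from −0.24 to −0.29. Among cells with no Mest UMI Isyna1 was at −0.30 (−0.40 to −0.21), but at −0.49 (−0.56 to −0.41) among cells with at least 2. Dda1, of the CRL4 ubiquitin ligase, was at −0.37 (−0.41 to −0.33).

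The 6 cytoskeleton and signalling members were all called lower and lay close together, from −0.67 for Map1s, a microtubule-associated protein gene (51.1 and 32.2 CPM, −0.73 to −0.60), to −0.53 for the tropomyosin gene Tpm4. Between them were Myo9b at −0.64, Homer3 at −0.58, Mast3 at −0.56 and Pik3r2, a regulatory subunit of phosphoinositide 3-kinase, at −0.54. Among the less studied members, Ccdc124 had the most UMIs, at 225.0 and 150.9 CPM (−0.58, −0.61 to −0.55), and Slc10a7 was at −0.61, Fam32a at −0.51, Tmem161a at −0.47, Armc6 at −0.40, Abhd8 at −0.31 and Ocel1 at −0.27.

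The 10 members called neither were Bst2, Isyna1, Gdf15, Ocel1, Nr2f6, Ssbp4, Arrdc2, Borcs8, Abhd8 and Kxd1, with a pooled log2 ratio of −0.25 (−0.27 to −0.23). Lower and less-lowered members were neighbours: Isyna1 and Ssbp4 are adjacent, and Fkbp8 and Ell beside them were at −0.49 and −0.64.

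Other subunits of the members' complexes, encoded outside the interval, were compared next. Of 158 such partners in 14 complexes, all passed the minimum, with a median log2 ratio of 0.01, 0 called lower and 5 called higher, against backgrounds of 8.6% and 6.85%. The 5 MCM subunits other than Mcm5 ranged from −0.07 for Mcm2 to 0.05 for Mcm3, the 6 LSM subunits from −0.08 to 0.06 and the 27 Mediator subunits from −0.17 to 0.24. The 48 large-subunit mitoribosomal genes ranged from −0.17 to 0.33. Mvb12b, the relative of Mvb12a in ESCRT-I, was the lowest partner at −0.29 (−0.45 to −0.13).

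The 5 partners called higher came from 4 complexes. Mrpl24 was the only one of them with many UMIs, at 191.9 and 240.4 CPM (0.33, 0.30 to 0.35). Aff1 (0.48, 0.32 to 0.64) and Eaf2 (0.36, 0.05 to 0.68), which act with Ell in the super elongation complex, were at 5.54 and 7.71 CPM and at 1.49 and 1.92 CPM. Vps37c was at 0.47 (0.09 to 0.87), and Copz2, with 42 and 61 UMIs, at 0.35 (−0.24 to 0.96), an interval that holds 0.

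**Figure D3:**
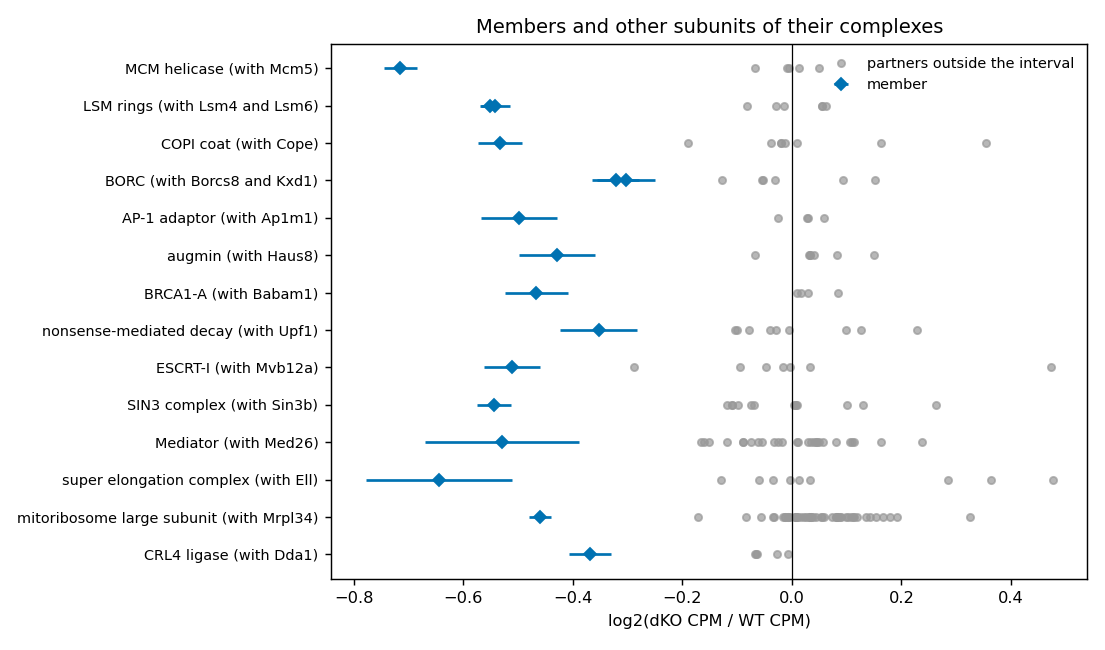
Log2 ratio of CPM in the S1/5 dKO-labelled library to WT for members (blue diamonds; bars, 95% counting intervals) and for 158 partner subunits encoded outside the interval (gray points), in 14 complexes. Every member with a complex listed lies to the left of all its partners, which sit around the line at 0.

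Relatives of the members in sequence were counted as well. Of 45 listed paralogs, 40 passed, with a median of −0.01, 3 called lower (beside 8.6% of all genes) and 0 called higher (beside 6.85%). The 3 were Pik3r3 at −0.62 (−1.17 to −0.08, 69 and 51 UMIs), Crtc3 at −0.43 (−1.01 to 0.15, 58 and 49 UMIs) and Ap1m2 at −0.41 (−0.65 to −0.17, 305 and 261 UMIs). The interval of Crtc3 held 0.

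Whether all cells or some carried the difference was examined in cells thinned to 10000 UMIs, which left out 43 WT cells and 67 cells of the other library. The 57 members had a median of 51 UMIs per WT cell (5th to 95th percentile 38 to 66; 2193 cells) and 36 UMIs per cell in the S1/5 dKO-labelled library (25 to 48; 2843 cells). Of the latter, 66 cells (2.32%; exact binomial 95% interval 1.80 to 2.94) reached the WT median. This share depends on the depth: at 5000 UMIs per cell it was 7.59%. The distribution shifted as a whole and had 1 peak in each library. Its variance was 1.41 times the mean in WT and 1.27 times in the other library, beside 1.36 and 1.32 for the 58 telomeric genes, whose medians were 52 UMIs in both. Between the members of the centromeric and telomeric part of the block, UMIs per cell correlated weakly, at r = 0.05 in WT and 0.06 in the other library, over cells of 1 library each, and this is no finding.

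**Figure D4:**
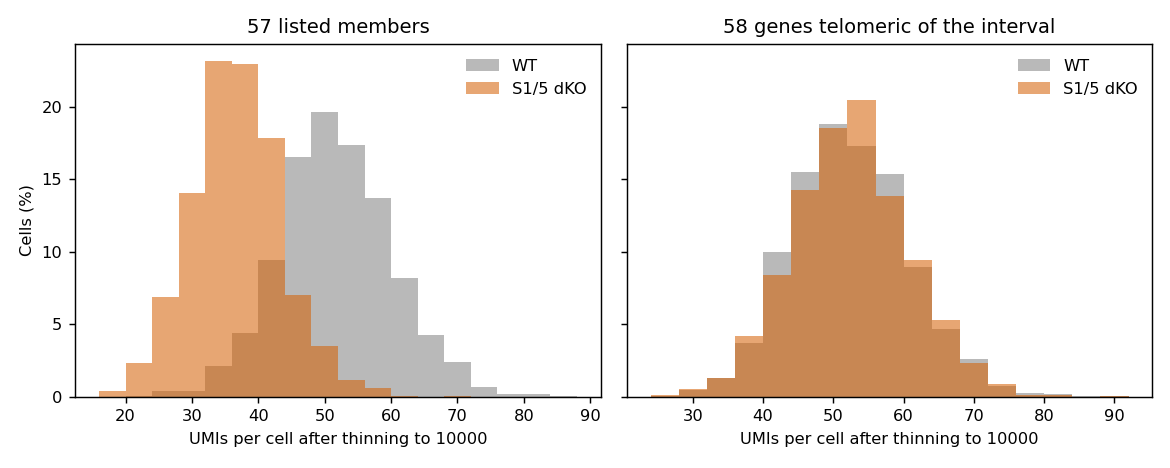
Share of cells (%) by UMIs per cell after thinning to 10000 UMIs, for the 57 members (left) and the 58 genes telomeric of the interval (right), in WT (gray) and the S1/5 dKO-labelled library (orange). Medians are 51 and 36 UMIs on the left and 52 and 52 on the right.

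The member difference was as large in every group of cells examined. In 3 equal groups of cells by total UMIs, by share of G2/M transcripts and by share of S-phase transcripts the pooled log2 ratio lay between −0.50 and −0.52. Mest, an imprinted gene, had 11.3 CPM in WT but 93.6 CPM in the S1/5 dKO-labelled library, and divides the cells differently in the 2 libraries. Among cells with no Mest UMI (1986 and 362 cells) the members were at 5159 and 3600 CPM, and among cells with at least 2 (213 and 2074 cells) at 5215 and 3641 CPM.

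Barcodes that the cell limits left out gave a ratio from other droplets of the same 2 cultures, which are not independent samples. In barcodes with at least 1000 genes and over 5% mitochondrial UMIs (26 and 29 barcodes) it was −0.53 (−0.68 to −0.39). In barcodes with 10 to 100 UMIs it was −0.50 (−0.55 to −0.45), and 30 of the 39 members that passed there were called lower, beside 13.8% of 5320 genes. Hmox1 was at −0.998 (−1.27 to −0.73), Klhl26 at −1.89 (−3.49 to −0.52, 20 and 6 UMIs) and Bst2 at −0.32 (−0.87 to 0.22, 63 and 56 UMIs) in these barcodes.

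In barcodes with 51 to 200 UMIs the pooled ratio was −0.06 (−0.15 to 0.03). Of these, 2549 of 5759 in the WT library and 1911 of 5724 in the other had at least 1000 genes in the other library. Over all 2262 barcodes with at least 1000 genes in WT, the S1/5 dKO-labelled library held members at 4974 CPM (4725 to 5231), beside 5165 CPM in WT cells. Over all 2939 with at least 1000 genes in the S1/5 dKO-labelled library, the WT library held 3919 CPM (3720 to 4127), beside 3625 CPM in the cells of the former. Without such barcodes, a choice made after seeing the data, the ratio was −0.45 (−0.59 to −0.31) for 51 to 200 UMIs and −0.53 (−0.58 to −0.48) for 10 to 100 UMIs.

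**Figure D5:**
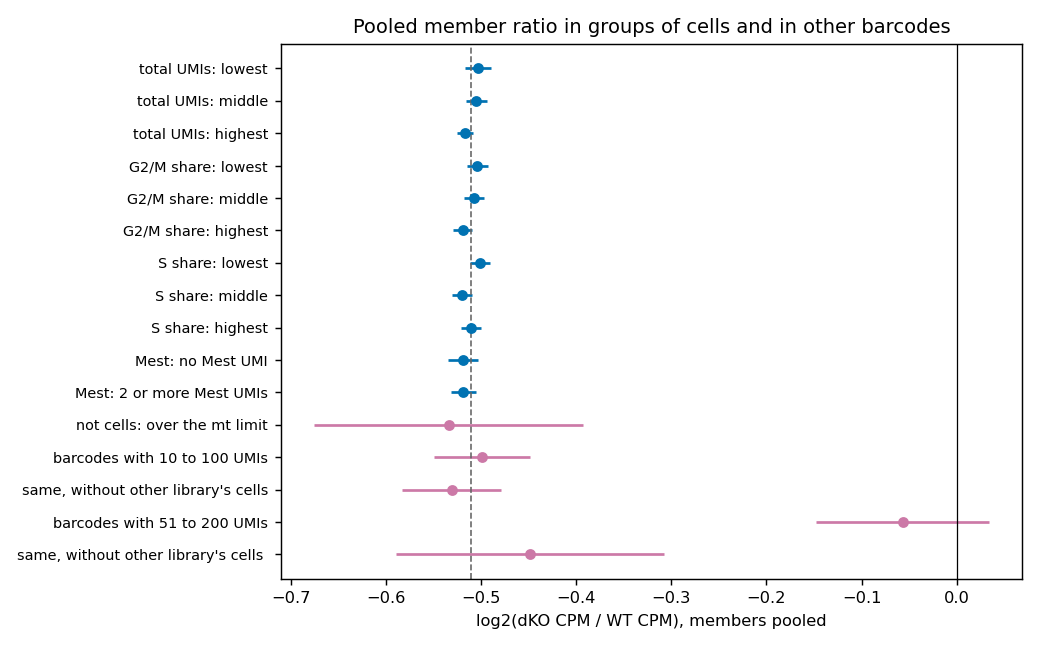
Pooled log2 ratio of the members (S1/5 dKO-labelled library to WT) with 95% counting intervals in groups of cells (blue) and in barcodes not taken as cells (pink); the dashed line marks all cells, −0.51, and the solid line 0. All groups lie near the dashed line but the barcodes with 51 to 200 UMIs, at −0.06, and at −0.45 without barcodes that had at least 1000 genes in the other library.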

How the data were processed

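The authors aligned and counted the 3′-end reads with Cell Ranger 3.0.2 (submitters' processing notes) against mm10 and deposited raw UMI counts per gene and barcode, without a cell filter. These deposited counts were the only values used. No doublets were removed, and 135 WT cells and 140 cells of the other library held more than 2 times their library's median UMIs. UMIs of cells with at least 1000 genes and at most 5% mitochondrial UMIs were summed per library and divided by the library total (CPM). Ratios carry exact conditional binomial 95% intervals, computed with scipy 1.17.1, and the median half-width over members was 0.07 on the log2 scale. The scripts were tested on simulated data. Some genes of the interval are not reported here. Genes were placed with GENCODE vM21 (GRCm38). Members, gene lists, roles and tests were chosen with earlier results of these data known. By the rule for named genes, all members could be named; values were given for the 5 lowest and 5 highest ratios with at least 500 UMIs, departing members, the most counted member of each role, the genes next to the bounds, and called partners, paralogs and response genes. Alternatives were TMM scaling (edgeR 4.0.16), scaling to the median gene, thinning, and other limits on cells, UMIs and barcodes.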

Additional observations from a re-analysis of the deposited data

How the results depend on the processing

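No test between the genotypes was possible with 1 library each, and no replicate could be left out. No paired analysis was possible because each group has 1 library. The pooled log2 ratio of the members was −0.50 with TMM scaling (−0.501), with the median of all genes set to 0 (−0.504) and in thinned cells (−0.501), and ranged from −0.52 to −0.50 over all alternatives. Members called lower numbered 47 to 49, called higher 0, and departing 3 to 4. The share of cells of the S1/5 dKO-labelled library that reached the WT member median was 7.59% at 5000 UMIs per cell. The ratio outside the cells was −0.057 in barcodes with 51 to 200 UMIs. Among the named genes that were followed over these alternatives, thinning moved Gdf15 to −0.57, Mcm5 to −0.68 and Mrpl34 to −0.44, and the other 187 values lay within the main counting interval. Mast3, which was not followed, was at −1.06 in thinned cells. Depth limits members with few UMIs, such as Zfp827 and Slc25a42.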
